A study of Mus musculus with 24 samples.

Results

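The genotype-by-DCZ interaction in mouse brown fat asks of every gene whether its change after deschloroclozapine (DCZ) differed between Th-Cre and wild-type (WT) mice. It uses all 24 libraries of the series, and 13129 of the 36144 genes in the count table had enough reads to be tested. The value given for a gene is the log2 change from saline to DCZ in Th-Cre minus the same change in WT, so a positive value means that DCZ moved the gene up more, or down less, in Th-Cre. Interscapular brown adipose tissue was taken 30 minutes after DCZ or saline from mice of both genotypes aged 6 to 8 months. The 4 groups were Th-Cre given DCZ, Th-Cre given saline, WT given DCZ and WT given saline, with 6 mice each, 3 male and 3 female, 1 library per mouse. The Th-Cre mice are of the strain B6.129X1- Tht1(cre)Te/Kieg, in which tyrosine hydroxylase sequence drives Cre recombinase, and the WT mice are C57Bl/6J. DCZ is a ligand of designer muscarinic receptors that respond little to natural transmitters. The sources used here do not give the receptor, its route of delivery or whether the WT mice also carried it, and the genotypes differ by strain as well as by Cre.

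Noradrenaline released by sympathetic nerves acts on beta-adrenergic receptors of brown adipocytes, which raise cyclic AMP (cAMP) and activate protein kinase A. The kinase phosphorylates CREB, a transcription factor that binds the cAMP response element (CRE) in promoters of early genes such as Nr4a1 and Sik1. Immediate early genes are transcribed within minutes of such a signal, without new protein synthesis, and the thermogenic programme around Ucp1, the uncoupling protein that lets mitochondria make heat, follows more slowly.

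Levels below are in CPM, the reads of a gene per M reads of its library, with library sizes scaled by edgeR's TMM factors. Adjusted p-values come from edgeR's quasi-likelihood test with Benjamini-Hochberg adjustment over all 13129 genes, and a gene is said to have risen, fallen or differed only where the adjusted p was under 0.05. Errors of log2 values are standard errors (SE) from the fit, which had a mean for each group and a term for sex. Between 11.93 and 22.87 M estimated counts were assigned in a library. Muscle markers, described further on, were raised in 6 libraries. Brown adipocyte markers were abundant in every library, summing to 5475 to 8198 CPM in Th-Cre DCZ, 6291 to 8480 in Th-Cre saline, 7512 to 11510 in WT DCZ and 8290 to 10860 in WT saline libraries. Th itself gave 1 read over all 24 libraries, so it gives no check of the genotype label or of the nerves. The RNA comes from bulk tissue, where fewer cells of a type and less RNA per cell cannot be told apart.

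The promoters of the 4 genes with the smallest interaction p are shown because CREB binding sites are the textbook route from cAMP to early transcription. Each is 250 bases before to 50 after the RefSeq transcription start on GRCm38.p6, written 5′ to 3′ on the strand of the gene, with the full CRE, TGACGTCA, in capitals.
Arl4d promoter, chr11:101665291-101665590 (+ strand): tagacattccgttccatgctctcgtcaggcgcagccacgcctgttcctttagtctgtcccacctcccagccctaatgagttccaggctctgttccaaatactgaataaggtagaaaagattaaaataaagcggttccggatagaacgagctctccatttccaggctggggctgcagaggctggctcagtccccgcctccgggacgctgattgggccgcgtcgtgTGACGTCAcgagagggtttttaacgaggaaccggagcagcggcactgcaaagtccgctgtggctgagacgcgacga
Dusp1 promoter, chr17:26508423-26508722 (- strand): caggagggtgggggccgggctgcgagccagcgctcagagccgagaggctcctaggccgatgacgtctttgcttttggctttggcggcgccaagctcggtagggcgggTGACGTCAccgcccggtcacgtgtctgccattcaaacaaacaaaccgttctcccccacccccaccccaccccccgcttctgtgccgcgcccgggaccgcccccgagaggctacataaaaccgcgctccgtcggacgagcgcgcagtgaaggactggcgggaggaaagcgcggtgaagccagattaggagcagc
Ppp1r15a promoter, chr7:45526219-45526518 (- strand): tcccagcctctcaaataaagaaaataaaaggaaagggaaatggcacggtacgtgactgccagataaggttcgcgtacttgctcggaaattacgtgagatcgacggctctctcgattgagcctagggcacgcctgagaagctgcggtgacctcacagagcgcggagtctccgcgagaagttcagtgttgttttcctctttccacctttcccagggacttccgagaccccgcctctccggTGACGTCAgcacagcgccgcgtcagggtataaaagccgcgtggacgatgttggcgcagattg
Jun promoter, chr4:95052173-95052472 (- strand): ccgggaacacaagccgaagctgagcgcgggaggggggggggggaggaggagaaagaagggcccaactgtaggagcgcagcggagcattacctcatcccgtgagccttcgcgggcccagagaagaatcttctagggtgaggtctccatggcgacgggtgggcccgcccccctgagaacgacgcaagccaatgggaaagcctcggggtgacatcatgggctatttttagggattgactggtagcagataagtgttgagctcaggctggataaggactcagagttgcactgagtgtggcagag
The CRE began 26 bases before the start in Arl4d, 143 in Dusp1 and 12 in Ppp1r15a, and the Jun window held no exact match. TGACGTCA reads the same on both strands, and 588 of 32851 RefSeq windows of this length (1.79%) held it. By gene, it stood in 3 of the 19 with a window among the 20 genes named for the smallest p (15.79%), against 346 of 10038 tested genes with a window (3.45%). Among the early genes listed further on, 4 of 42 with a window held it (9.52%): Btg2, Dusp1, Dusp8 and Errfi1. A match is a description of letters and not of binding.

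Arl4d was the only gene whose DCZ change differed between genotypes at an adjusted p under 0.05, which is 0.00762% of the genes tested. The call was lost with a term for the library numbers, which in WT are nearly bound to treatment (adjusted p = 0.196, edgeR). It encodes an Arf-like small GTPase of a family that recruits cytohesins, exchange factors for Arf6, to the plasma membrane, and it lies at chr11:101665541-101667832 on the + strand, where it overlaps no other annotated gene. Arl4d ran from 3.17 to 5.17 CPM (median 4.09) in Th-Cre DCZ, 2.196 to 3.83 (2.47) in Th-Cre saline, 1.69 to 2.62 (1.998) in WT DCZ and 3.16 to 5.88 (3.86) in WT saline libraries. All 6 WT DCZ libraries lay below all 6 WT saline libraries, while in Th-Cre 3 of 6 DCZ libraries lay above every saline library and the groups overlapped. These levels rest on 30 to 83 reads per library.

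Group means of Arl4d were 4.17 ± 0.778 CPM in Th-Cre DCZ, 2.75 ± 0.636 in Th-Cre saline, 2.11 ± 0.393 in WT DCZ and 4.02 ± 0.984 in WT saline (SD, n = 6 each). The interaction value was 1.53 ± 0.21 (95% confidence interval 1.10 to 1.96, a 2.89-fold difference between the changes), with an adjusted p of 0.00185 by edgeR's quasi-likelihood test. Its parts had opposite signs: 0.60 ± 0.147 in Th-Cre (adjusted p = 0.164) and −0.93 ± 0.149 in WT (adjusted p = 0.0237), so the fall in WT passed the threshold and the Th-Cre difference did not. Under saline Arl4d was lower in Th-Cre than in WT (log2 −0.55, adjusted p = 0.0101), and under DCZ it was higher in Th-Cre (0.98, adjusted p = 0.000438).

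**Figure D1:**
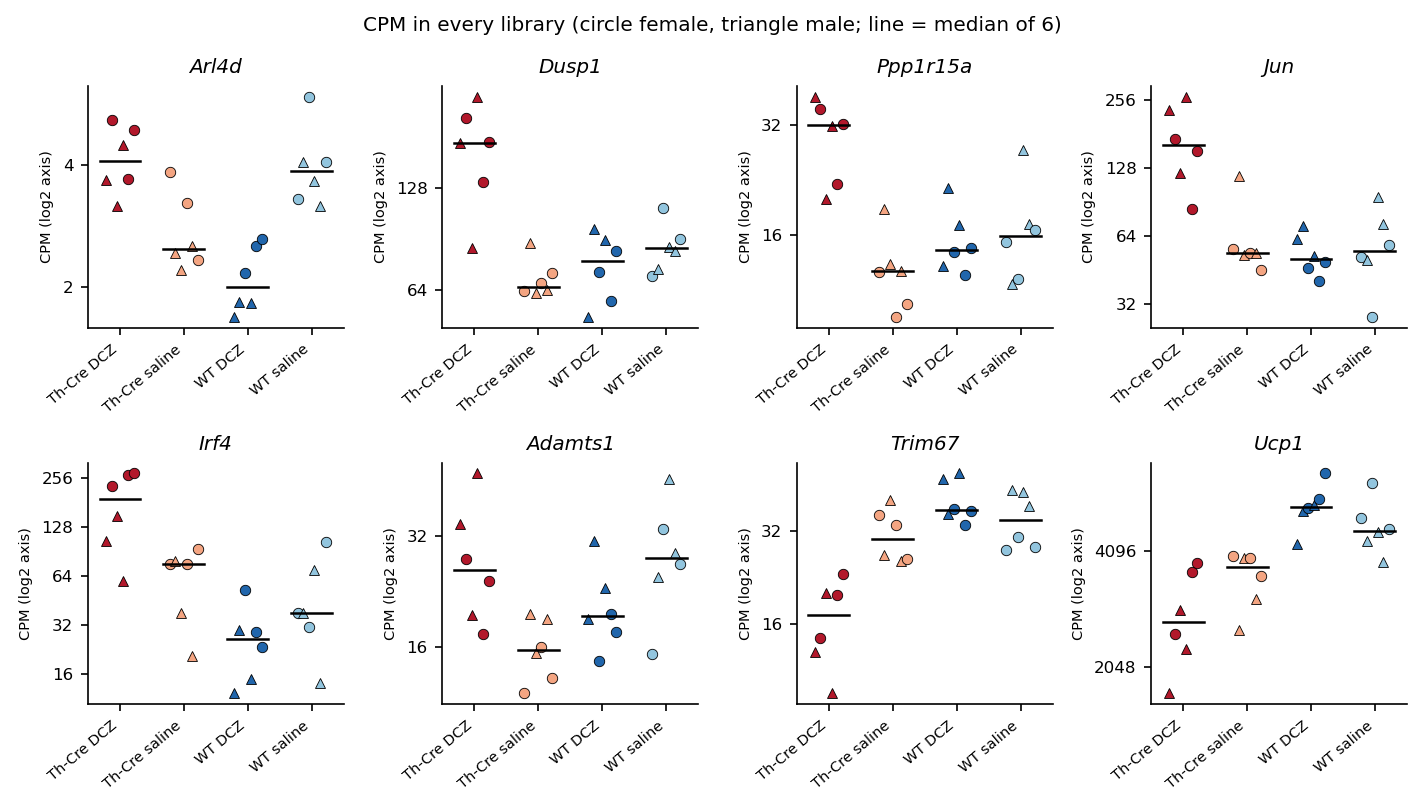
CPM of 8 genes (log axis) in each library of the 4 groups, Th-Cre DCZ at the left and WT saline at the right; circles are females, triangles males and lines group medians. Arl4d is low in all 6 WT DCZ libraries, whereas Dusp1, Ppp1r15a, Jun and Irf4 are high in Th-Cre DCZ and Trim67 is low there.

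At an unadjusted p under 0.05, 980 genes (7.46%) had an interaction, 525 positive (4%) and 455 negative (3.47%), and 1 of them passed adjustment. The number past adjustment was 16 with DESeq2 (13 positive and 3 negative) and 8 in edgeR with no filter on low counts. DESeq2's 16 were Arl4d, Dusp1, Ppp1r15a, Adamts1, Gadd45b, Plk3, Dnajb1, Tmem140, Jun, Arc, Atg101, Irf4 and Irf1 with positive values, and Trim67, Nsun3 and Vamp1 with negative ones. Of the 525 positive genes, 501 had a positive DCZ change in Th-Cre and a negative one in WT, and in 288 the Th-Cre change was the larger of the pair. Of the 455 negative genes, 424 went the other way round, and in 154 the Th-Cre change was larger. The median value was 0.50 among the positive and −0.33 among the negative genes. Opposite signs of the parts are favoured by selecting on their difference, and over all genes tested 3377 were up in Th-Cre and down in WT and 3324 the reverse. The Th-Cre change was the larger of the pair in 5828 of all 13129.

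Within a genotype, DCZ changed 3 genes in Th-Cre (0.0229%) and 1 in WT (0.00762%). All 6 DCZ libraries lay above all 6 saline libraries for 27 genes (0.206%) in Th-Cre and for 9 (0.0686%) in WT. They lay below for 13 genes (0.099%) in Th-Cre and 16 (0.122%) in WT. No gene was separated in both genotypes in opposite directions. The comparisons within a genotype and between genotypes share libraries with the interaction and are its parts, not further evidence for it.

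**Figure D2:**
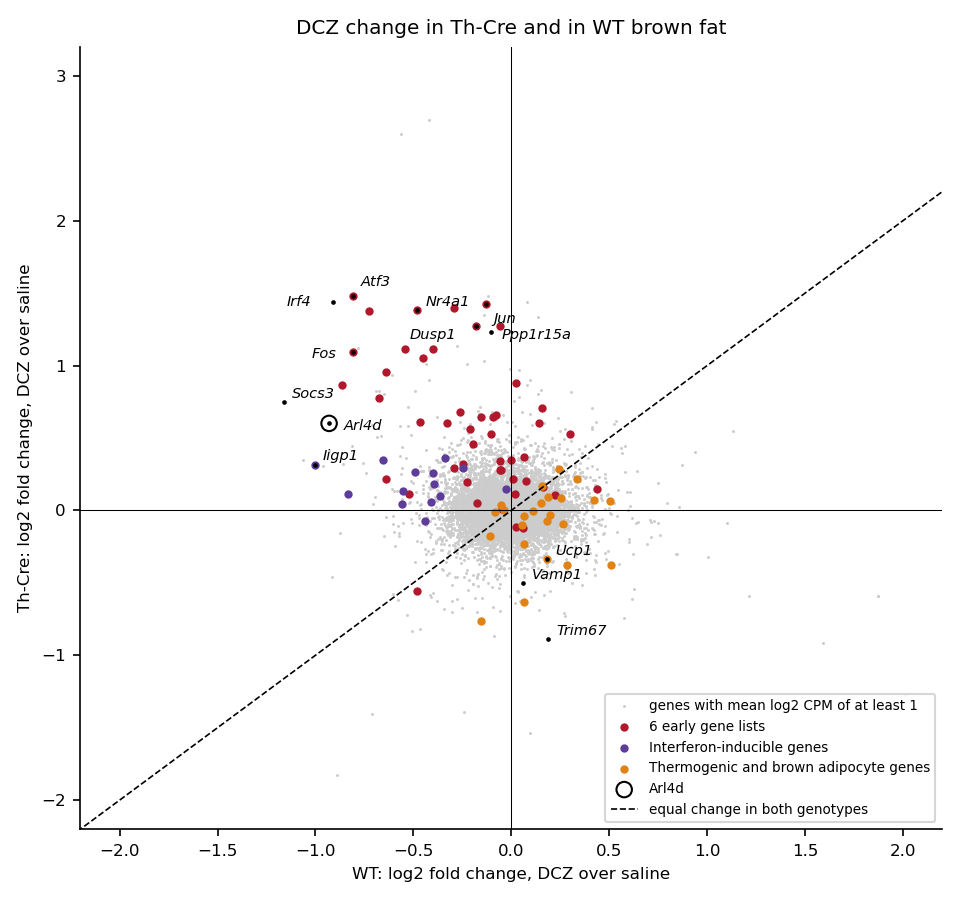
Log2 change from saline to DCZ in Th-Cre (vertical axis) against that in WT (horizontal axis), 1 point per gene with a mean log2 CPM of at least 1. Members of the early, interferon and thermogenic lists among these genes are in colour. Distance from the diagonal is the interaction; Arl4d lies in the upper left (0.60 in Th-Cre, −0.93 in WT), while Dusp1, Jun and Ppp1r15a lie high and near 0 in WT.

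After Arl4d the smallest p-values belonged to Dusp1, Ppp1r15a and Jun, the genes that DCZ raised in Th-Cre, and for none of them did the difference between genotypes pass adjustment. Dusp1, a phosphatase that switches off MAP kinases, ran from 84.8 to 237 CPM (median 174) in Th-Cre DCZ, 62.4 to 87.8 (65.4) in Th-Cre saline, 53.3 to 96.8 (77.8) in WT DCZ and 70.2 to 112 (84.7) in WT saline. In Th-Cre, 5 of 6 DCZ libraries exceeded every saline library, and the WT groups overlapped. Its interaction value was 1.45 ± 0.259 (adjusted p = 0.0571), made of 1.27 ± 0.185 in Th-Cre and −0.18 ± 0.183 in WT.

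Ppp1r15a encodes GADD34, which restarts translation by dephosphorylating eIF2alpha. It ran from 20.05 to 38.2 CPM (median 32.02) in Th-Cre DCZ, 9.55 to 18.9 (12.7) in Th-Cre saline, 12.4 to 21.5 (14.5) in WT DCZ and 11.7 to 27.4 (15.9) in WT saline, so that the Th-Cre groups were separated and the WT groups were not. The interaction value was 1.33 ± 0.262 (adjusted p = 0.136). Jun, an AP-1 subunit, had 84.5 to 264 CPM (median 162) in Th-Cre DCZ, 45.1 to 118 (53.9) in Th-Cre saline, 40.4 to 71.0 (50.6) in WT DCZ and 28.1 to 95.6 (54.9) in WT saline. For Jun, 5 of 6 Th-Cre DCZ libraries exceeded every Th-Cre saline library and all 6 exceeded every WT DCZ library, while the WT groups overlapped. Its interaction value was 1.56 ± 0.312 (adjusted p = 0.136). Ppp1r15a overlaps Tulp2, Jun overlaps Junos and the Dusp1 span overlaps 4 annotated genes including Ergic1, and since the use of strand in counting is not given in the sources used here, their reads could be shared.

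The other 6 of the 10 positive genes named for the smallest p were Dnajb1, Tmem140, Adamts1, Irf4 and Atg101, each with an adjusted p of 0.147, and Plk3 (adjusted p = 0.159). Gadd45b and Arc, members of the early lists with a mean log2 CPM under 1, also had an adjusted p of 0.147. Irf4, a transcription factor that cAMP induces in mouse brown adipocytes, had the largest value of these 8, 2.35 ± 0.51, made of 1.44 ± 0.358 in Th-Cre and −0.91 ± 0.365 in WT. Irf4 ran from 59.6 to 274 CPM (median 190) in Th-Cre DCZ, 20.5 to 93.7 (75.9) in Th-Cre saline, 12.2 to 52.8 (26.2) in WT DCZ and 14.1 to 104 (37.9) in WT saline. Every Th-Cre DCZ library lay above every WT DCZ library, a difference of 2.69 (adjusted p = 0.000183).

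Arc, an activity-induced gene best known from synapses, ran from 0.924 to 3.16 CPM in Th-Cre DCZ, 0.454 to 1.05 in Th-Cre saline, 0.411 to 1.52 in WT DCZ and 0.521 to 3.65 in WT saline (interaction 2.26 ± 0.495). Gadd45b, a stress-induced gene, had 1.502 to 4.87 CPM in Th-Cre DCZ, 0.366 to 2.199 in Th-Cre saline, 0.762 to 2.98 in WT DCZ and 0.900 to 5.68 in WT saline (2.04 ± 0.445). Adamts1, a secreted metalloprotease, had 17.3 to 47.5 CPM in Th-Cre DCZ, 11.9 to 19.6 in Th-Cre saline, 14.7 to 31.0 in WT DCZ and 15.3 to 46.0 in WT saline (1.31 ± 0.279). In all 3 of these genes the highest WT saline library was close to or above the highest Th-Cre DCZ library. Adamts1 was lower in Th-Cre than in WT under saline (−0.88, adjusted p = 0.00399). Its lowest WT saline value, 15.3 CPM, was of WT2, the 1 WT saline library among the lower library numbers. The other WT saline libraries had 24.8 to 46.0.

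Dnajb1, an Hsp40 co-chaperone, drew much of its value of 0.73 ± 0.151 from WT. It ran from 16.8 to 26.1 CPM (median 22.1) in Th-Cre DCZ, 14.3 to 22.1 (17.9) in Th-Cre saline, 12.8 to 14.8 (14.01) in WT DCZ and 14.4 to 22.4 (20.1) in WT saline, with 4 of 6 WT DCZ libraries below every WT saline library. The 14.4 was of WT2, the 1 WT saline library among the lower library numbers, and lay within the WT DCZ range. The other WT saline libraries had 16.6 to 22.4. Tmem140, a membrane protein gene, ran from 61.7 to 92.2 CPM in Th-Cre DCZ and 37.2 to 59.2 in Th-Cre saline, with no overlap, against 37.7 to 47.1 in WT DCZ and 44.0 to 53.2 in WT saline. Tmem140 had a value of 0.65 ± 0.137. Atg101, part of the complex that starts autophagy, had 0.74 ± 0.161, with 0.48 in Th-Cre and −0.26 in WT. Plk3, a stress-activated kinase of the polo-like family, ran from 7.90 to 21.8 CPM (median 11.8) in Th-Cre DCZ, 4.54 to 11.9 (5.70) in Th-Cre saline, 4.49 to 9.66 (6.09) in WT DCZ and 4.56 to 15.8 (8.92) in WT saline. Its groups overlapped, and its value was 1.51 ± 0.338.

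Early genes were read as 6 lists with 56 members, of which 52 were tested, and the lists were chosen with results of these data known. Of the 52 genes, 46 had a positive interaction value, against 6613 of all 13129, and the median was 0.70, against 0.0017 over all genes. At an unadjusted p under 0.05 there were 29 (55.8%), every one positive, against 4% positive genes over the whole table; none passed adjustment. DCZ changes were positive in 48 of 52 genes in Th-Cre (median 0.58) and in 16 of 52 in WT (median −0.17), and 35 genes were up in Th-Cre and down in WT. The members are read from the same libraries and tend to move together from mouse to mouse, so the counts are not counts of independent events.

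**Figure D3:**
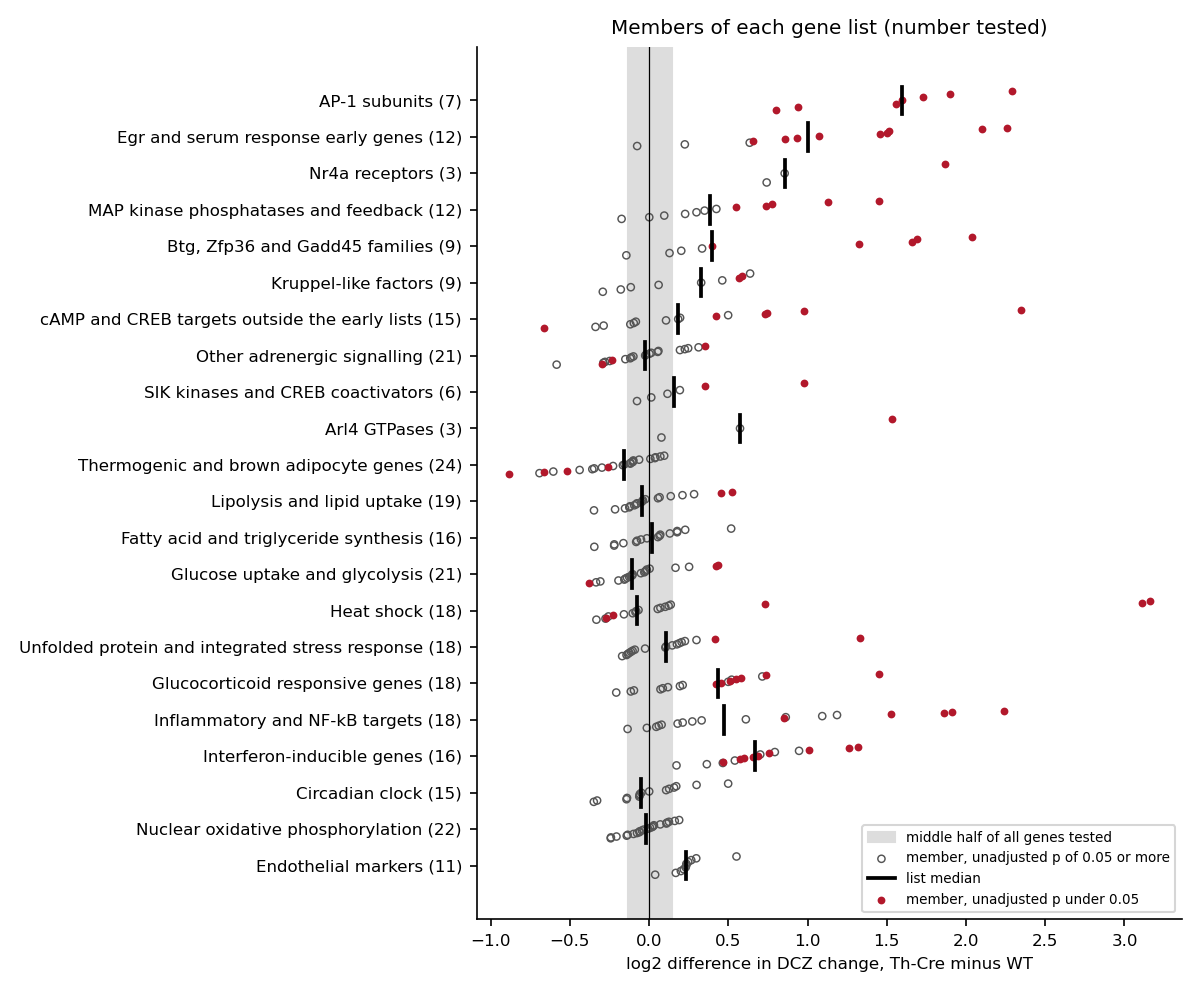
Interaction values (log2, horizontal axis) of the tested members of each gene list, 1 point per gene, red where the unadjusted p was under 0.05, with the list median as a vertical bar and the interquartile range of all genes tested in grey. The AP-1, Nr4a, interferon, Arl4 and endothelial lists and all but 1 of the Egr list lie to the right of 0. Most thermogenic genes lie to the left.

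By family, AP-1 subunits, which bind DNA as Fos and Jun pairs, had the highest median of the 6. All 7 tested AP-1 genes were positive, all 7 with an unadjusted p under 0.05, and the median of 1.60 split into 0.96 in Th-Cre and −0.64 in WT. Fos had 33.7 to 190 CPM (median 97.1) in Th-Cre DCZ, 21.5 to 117 (35.1) in Th-Cre saline, 9.52 to 85.1 (21.9) in WT DCZ and 21.6 to 110 (43.1) in WT saline. The 4 groups of Fos overlapped, and its value of 1.90 ± 0.618 came from 1.09 in Th-Cre and −0.81 in WT. Atf3 had 2.29 ± 0.583 and Junb 1.60 ± 0.501.

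Egr and other serum-response genes, the zinc finger factors and secreted proteins induced by growth signals, were positive in 11 of 12 (median 1.004, 9 with an unadjusted p under 0.05). Egr1 ran from 76.8 to 326 CPM (median 174) in Th-Cre DCZ, 66.9 to 211 (104) in Th-Cre saline, 39.0 to 160 (67.1) in WT DCZ and 67.2 to 263 (107) in WT saline, with an interaction value of 1.45 ± 0.428. In this family, as in AP-1, no member had a positive change in WT. Saline mouse WT9 had the highest WT saline level of all 7 AP-1 genes and of this family except Ier3, Ier5 and Ccn2. The WT changes without WT9 are not given here. With 1 library left out, the interaction median ran from 1.31 to 1.89 for AP-1 and from 0.85 to 1.16 for this family. The 3 Nr4a orphan nuclear receptors, CREB targets in many cells, were all positive (median 0.86), and 1 of them, Nr4a1, had an unadjusted p under 0.05. Their median change in WT was −0.08, with 1 of 3 positive. For Nr4a1 the WT DCZ libraries ran from −1.95 to 0.82 in log2 CPM relative to the WT saline mean. Nr4a1 ran from 185 to 360 CPM (median 267) in Th-Cre DCZ and 67.7 to 166 (116) in Th-Cre saline, without overlap, against 23.5 to 162 (63.2) in WT DCZ and 45.1 to 212 (75.5) in WT saline, and its value was 1.87 ± 0.472 (adjusted p = 0.333).

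MAP kinase phosphatases and other feedback inhibitors were positive in 11 of 12 with a lower median of 0.39, and their WT median was 0.04. Errfi1, an inhibitor of the EGF receptor, had 38.8 to 56.6 CPM in Th-Cre DCZ and 25.9 to 36.2 in Th-Cre saline, without overlap, against 27.9 to 46.6 in WT DCZ and 19.8 to 67.8 in WT saline (interaction 0.74 ± 0.278). Genes of the Btg, Zfp36 and Gadd45 families, which restrain proliferation, shorten mRNA half-life or respond to stress, were positive in 8 of 9 (median 0.40). Gadd45g ran from 51.2 to 132 CPM in Th-Cre DCZ and 19.4 to 43.0 in Th-Cre saline, without overlap, against 37.4 to 78.6 in WT DCZ and 37.2 to 93.0 in WT saline (1.33 ± 0.369). Btg2 had a value of 1.69 ± 0.415 and Zfp36 1.66 ± 0.486. Krüppel-like factors were positive in 6 of 9 (median 0.33). Across the 6 lists, Nr4a1, Errfi1 and Gadd45g were the 3 genes with separated Th-Cre groups (0.206% of all genes), and no early gene had separated WT groups.

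**Figure D4:**
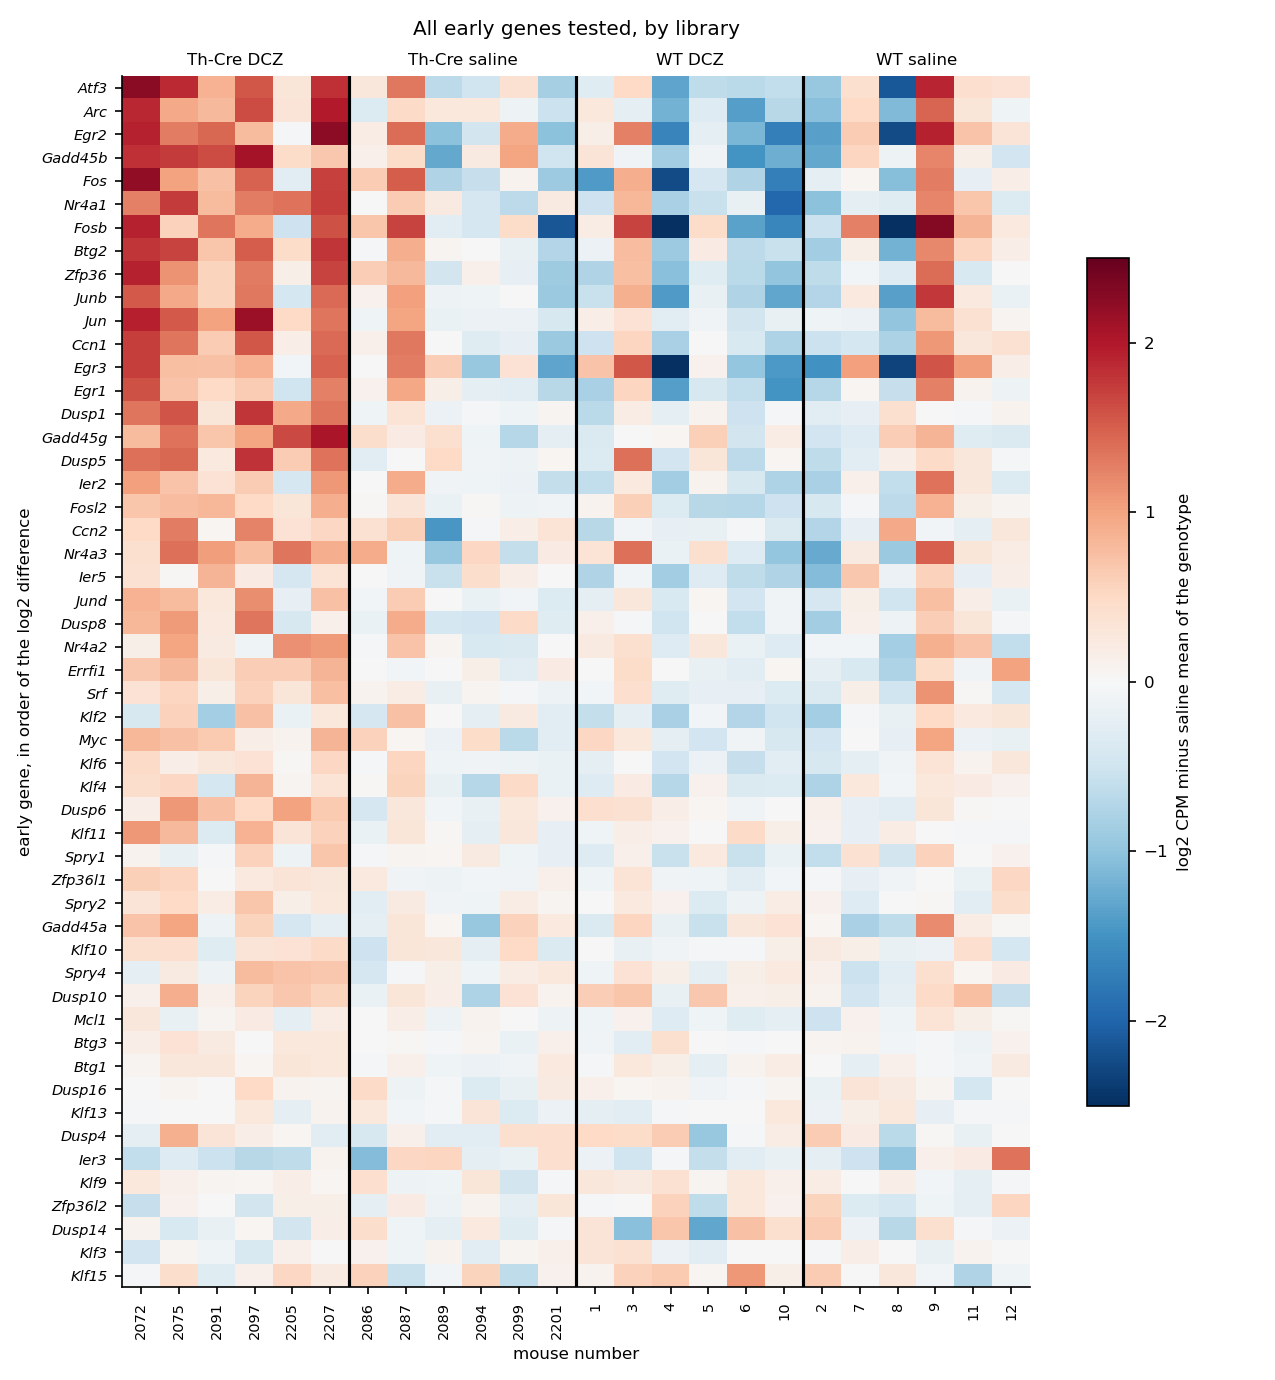
Log2 CPM of the 52 tested early genes (one per line) in each library, minus the mean of the saline libraries of the same genotype; red is above and blue below that mean, and mouse numbers run along the horizontal axis (DN mice in Th-Cre, WT mice in WT). In Th-Cre DCZ libraries 35 to 50 of the 52 genes lie above that mean, and in WT DCZ libraries 10 to 20 do, except WT3 with 39; the saline libraries DN2087 (40) and WT9 (41) reach the Th-Cre DCZ range.

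The spread between mice was wide. The mean log2 CPM of the 7 AP-1 genes ran from 5.03 to 6.71 (median 6.26) in Th-Cre DCZ, 4.27 to 6.14 (4.98) in Th-Cre saline, 3.895 to 5.98 (4.71) in WT DCZ and 3.69 to 6.61 (5.41) in WT saline. All 4 groups overlapped, and the lowest Th-Cre DCZ library, of mouse DN2205, lay below the highest saline library of either genotype (DN2087 in Th-Cre, WT9 in WT). Markers of muscle also varied: their summed level was 49.7 to 646 CPM in Th-Cre DCZ, 60.0 to 1425 in Th-Cre saline, 62.0 to 99.8 in WT DCZ and 70.2 to 330 in WT saline. Without the 6 libraries whose muscle score was above 1, the early-gene median was 0.83 (47 of 53 positive).

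More early genes differed between genotypes under DCZ than under saline. Under DCZ 19 of 52 differed between Th-Cre and WT at an adjusted p under 0.05, and all 19 were higher in Th-Cre, where 6.75% of all genes tested were higher and 7.02% lower. Under saline 2 were higher (12.5%) and 6 were lower (12.4%). Klf9 and Klf13 were the 2 higher ones, and Ier5, Gadd45b, Gadd45g, Btg3, Klf4 and Klf2 the 6 lower ones. Nr4a1 differed by 2.03 under DCZ (adjusted p = 0.00126), Egr1 by 1.42 (adjusted p = 0.00548) and Fos by 1.85 (adjusted p = 0.0105), and none of these 3 passed the threshold under saline. These contrasts use the same libraries as the interaction.

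Adrb3, the main beta receptor of rodent brown adipocytes, had 183 to 353 CPM (median 226) in Th-Cre DCZ, 88.4 to 296 (196) in Th-Cre saline, 106 to 222 (134) in WT DCZ and 127 to 261 (161) in WT saline. Its value was 0.70 ± 0.313 (adjusted p = 0.643), with all groups overlapping. Adrb1 had −0.13 ± 0.219 (adjusted p = 0.901) and medians of 27.9 CPM in Th-Cre DCZ, 30.5 in Th-Cre saline, 29.5 in WT DCZ and 26.8 in WT saline.

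Downstream of the receptors, cAMP and CREB targets outside the early lists were positive in 9 of 15 (median 0.18), with 6 at an unadjusted p under 0.05, 5 positive and 1 negative. Sik1, a salt-inducible kinase that feeds back on CREB coactivators, had 126 to 245 CPM (median 197) in Th-Cre DCZ, 65.6 to 150 (105) in Th-Cre saline, 65.4 to 173 (100) in WT DCZ and 30.2 to 180 (106) in WT saline, and a value of 0.98 ± 0.367. Rgs2, a regulator of G protein signalling, was separated in Th-Cre, with 240 to 421 CPM in Th-Cre DCZ and 145 to 238 in Th-Cre saline, against 90.4 to 244 in WT DCZ and 77.1 to 234 in WT saline (0.73 ± 0.322). Pdk4, the kinase that shuts off pyruvate dehydrogenase, had 2046 to 2930 CPM in Th-Cre DCZ and 1381 to 1832 in Th-Cre saline, also without overlap, against 949 to 1466 in WT DCZ and 895 to 1376 in WT saline (0.43 ± 0.161). Pdk4 was already higher in Th-Cre than in WT under saline (0.59, adjusted p = 0.00177). The SIK kinases and CREB coactivators were positive in 5 of 6 (median 0.16), and the 21 other adrenergic signalling genes tested in 9 (median −0.02).

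Interferon-inducible genes, which defend cells against viruses and intracellular bacteria, were positive in all 16 tested (median 0.67), 9 of them with an unadjusted p under 0.05 (56.2%, against 4% positive genes over the whole table), and none passed adjustment. That count was 1 of 16 with the library-number term, 1 of 16 in females alone and 3 of 17 without the 6 muscle libraries, all with every tested member positive, and 9 of 17 in males alone. Their median change was 0.22 in Th-Cre and −0.42 in WT, with 15 of 16 positive in Th-Cre and 0 of 16 in WT. Irf1, a transcription factor of this response, ran from 19.6 to 32.2 CPM (median 25.7) in Th-Cre DCZ, 17.1 to 27.2 (21.5) in Th-Cre saline, 17.9 to 26.6 (21.8) in WT DCZ and 22.03 to 38.01 (29.4) in WT saline. The groups overlapped, and its value was 0.76 ± 0.176 (adjusted p = 0.205). Igtp, an interferon-induced GTPase, had 9.99 to 25.4 CPM in Th-Cre DCZ, 9.44 to 15.2 in Th-Cre saline, 8.22 to 14.9 in WT DCZ and 10.1 to 28.0 in WT saline (1.01 ± 0.331).

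Under saline 6 of the 16 interferon genes were lower in Th-Cre than in WT (12.4% of all genes), Irf1, Ifit2, Gbp3, Irgm1, Tgtp1 and Irf9, and under DCZ the 1 that differed, Gbp2, was higher (6.75%). The library means of this list ran from 2.85 to 3.91 in Th-Cre DCZ, 2.89 to 3.29 in Th-Cre saline, 2.61 to 3.42 in WT DCZ and 3.08 to 3.98 in WT saline, in log2 CPM. The median was highest in WT saline (3.49, against 3.17 in Th-Cre DCZ, 3.07 in Th-Cre saline and 3.06 in WT DCZ), and the highest Th-Cre DCZ library was of mouse DN2097. Macrophage markers summed to 72.3 to 144 CPM in Th-Cre DCZ, 75.7 to 149 in Th-Cre saline, 56.3 to 218 in WT DCZ and 61.8 to 94.0 in WT saline, and their part in the result was not tested.

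Inflammatory and NF-kB targets were positive in 16 of 18 (median 0.47, 5 with an unadjusted p under 0.05), with a median of 0.29 without DN2207. Socs3, an inhibitor of cytokine receptors, had a value of 1.91 ± 0.686, with 3.99 to 15.8 CPM in Th-Cre DCZ, 2.80 to 13.1 in Th-Cre saline, 2.22 to 17.0 in WT DCZ and 2.75 to 50.3 in WT saline, where the single WT saline library at the top exceeded all others. Glucocorticoid-responsive genes, which include Dusp1, were positive in 15 of 18 (median 0.44, 7 with an unadjusted p under 0.05, or 38.9%). The median of this list was 0.28 in Th-Cre and −0.10 in WT, and its interaction median was 0.29 without DN2207.

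Heat shock genes were split, with 8 of 18 positive and a median of −0.07. The inducible Hsp70 gene Hspa1a had a value of 3.16 ± 0.969 (adjusted p = 0.542), with 3.89 to 85.9 CPM in Th-Cre DCZ, 2.07 to 11.6 in Th-Cre saline, 1.94 to 17.4 in WT DCZ and 0.893 to 37.7 in WT saline. It shares nearly its whole sequence with Hspa1b (3.11), so the split of reads between them is uncertain. The list for unfolded proteins and integrated stress, to which Ppp1r15a belongs, was positive in 10 of 18 (median 0.10).

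On the negative side, Trim67, a ubiquitin ligase known from mouse neurons, had the smallest p, with a value of −1.08 ± 0.241 (adjusted p = 0.159). It ran from 9.58 to 23.3 CPM (median 17.2) in Th-Cre DCZ, 25.7 to 40.3 (30.2) in Th-Cre saline, 33.5 to 49.3 (37.5) in WT DCZ and 27.9 to 43.5 (34.7) in WT saline. Every Th-Cre DCZ library lay below all 18 others. Vamp1, a vesicle SNARE protein, had 9.19 to 12.9 CPM (median 10.7) in Th-Cre DCZ, 14.7 to 17.6 (15.6) in Th-Cre saline, 16.1 to 19.03 (16.5) in WT DCZ and 13.5 to 19.4 (17.2) in WT saline. All 6 of its Th-Cre DCZ libraries again lay below the other 18, and its value was −0.56 ± 0.131 (adjusted p = 0.205). Trim67 overlaps Gm16163 and Vamp1 overlaps Tapbpl, Cd27 and Mir8113.

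The remaining 8 negative genes named for the smallest p had values between −0.33 and −0.87 and adjusted p-values of 0.173 to 0.427. For Pnrc2, a cofactor of mRNA decay and nuclear receptors, Zfp213, Ppp1r3c, a subunit that targets a phosphatase to glycogen, and the mitochondrial coenzyme A carrier Slc25a42, the Th-Cre change was the larger part (−0.30, −0.34, −0.56 and −0.29). For Nsun3, which modifies a mitochondrial transfer RNA, and Rnf185, a ubiquitin ligase, it was the WT change (0.43 and 0.27). Nsun3 was at 17.1 CPM in WT2, the 1 WT saline library among the lower library numbers, within the WT DCZ range of 12.8 to 18.2. The other WT saline libraries had 9.63 to 12.01. Rnf185 was at 23.6 in WT2, within the 19.4 to 26.2 of the other WT saline libraries. Nanp, an enzyme of sialic acid synthesis, had nearly equal parts of −0.45 in Th-Cre and 0.43 in WT, with 1.43 to 2.81 CPM in Th-Cre DCZ, 2.65 to 3.22 in Th-Cre saline, 2.59 to 3.41 in WT DCZ and 1.49 to 2.75 in WT saline. Slc35f6 had −0.17 in Th-Cre and 0.15 in WT.

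Thermogenic and brown adipocyte genes leaned to negative values: 5 of 24 were positive, the median was −0.16, and 4 had an unadjusted p under 0.05 (16.7%, against 3.47% negative genes over the table), all negative. These 4 were Ucp1, Gk, Letmd1 and Ppargc1a. With 1 library left out, the list median ran from −0.25, without DN2205, to −0.11. The number with an unadjusted p under 0.05 was 1 of 24 with the library-number term. It was 0 of 24 in females alone and 6 of 24 in males alone. Ucp1 ran from 1752 to 3828 CPM (median 2683) in Th-Cre DCZ, 2550 to 3981 (3735) in Th-Cre saline, 4292 to 6533 (5358) in WT DCZ and 3843 to 6159 (4641) in WT saline. The DCZ and saline groups overlapped within each genotype, and the value was −0.52 ± 0.178 (adjusted p = 0.607), with −0.34 in Th-Cre and 0.18 in WT. Ucp1 was lower in Th-Cre than in WT under DCZ (−0.96, adjusted p = 0.000142) and under saline (−0.44, adjusted p = 0.0136).

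Ppargc1a, the coactivator of mitochondrial biogenesis, had 19.5 to 51.4 CPM (median 28.6) in Th-Cre DCZ, 29.1 to 61.4 (34.7) in Th-Cre saline, 33.5 to 49.5 (39.3) in WT DCZ and 25.9 to 41.5 (33.1) in WT saline, with a value of −0.66 ± 0.261. Gk, glycerol kinase, had −0.89 ± 0.333 and Letmd1, a mitochondrial protein needed for thermogenesis in mice, −0.26 ± 0.0994. Dio2, the deiodinase that activates thyroid hormone and a cAMP target in brown fat, had medians of 116 CPM in Th-Cre DCZ, 111 in Th-Cre saline, 122 in WT DCZ and 111 in WT saline, and its value was −0.12 ± 0.304 (adjusted p = 0.95). Of the other metabolic lists, glucose uptake and glycolysis was positive in 5 of 21 (median −0.10), lipolysis and lipid uptake in 7 of 19 (−0.04), fatty acid and triglyceride synthesis in 8 of 16 (0.02), nuclear oxidative phosphorylation in 10 of 22 (−0.02) and mitochondrially encoded mRNAs in 5 of 13 (−0.05). In the last 3 lists no gene had an unadjusted p under 0.05. The lean of glucose uptake and glycolysis was not stable, with 10 of 21 positive without the 6 muscle libraries (median −0.0012). In males alone 13 of 21 were positive (0.098) and in females alone 3 of 21 (−0.22). Creatine cycle genes were positive in 4 of 5 (0.06), secreted factors in 8 of 13 (0.05) and clock genes in 7 of 15 (−0.05).

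The other Arl4 genes had smaller values. Arl4a, the most abundant member by counts, ran from 125 to 213 CPM (median 180) in Th-Cre DCZ, 118 to 152 (132) in Th-Cre saline, 145 to 182 (152) in WT DCZ and 106 to 141 (129) in WT saline. Its WT groups were separated, with DCZ above saline, where those of Arl4d were separated with DCZ below. The interaction value of Arl4a was 0.08 ± 0.141 (adjusted p = 0.915), and that of Arl4c 0.57 ± 0.443 (adjusted p = 0.779). Cytohesins and Arf GTPases, the partners of the family, were positive in 5 of 16 (median −0.03), none with an unadjusted p under 0.05.

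The interaction was also compared between sexes in a model with 8 means, 1 for each sex in each group. It differed between females and males for 0 genes by edgeR (0%), with 514 at an unadjusted p under 0.05, and DESeq2 and limma-voom each gave 0 as well. Arl4d had 1.40 ± 0.309 in females and 1.67 ± 0.319 in males. Dusp1 had 1.68 ± 0.384 in females and 1.23 ± 0.383 in males, and Irf4 had 2.37 ± 0.744 in females and 2.28 ± 0.756 in males. Some other named genes lay further apart. Tmem140 had 0.34 ± 0.165 in females and 0.97 ± 0.165 in males, and Hspa1a had 1.39 ± 1.18 and 4.56 ± 1.29. Sik1 had 1.33 ± 0.372 in females and 0.37 ± 0.368 in males. Adrb3 had 0.04 ± 0.371 in females and 1.29 ± 0.373 in males, a female minus male difference of −1.25 ± 0.526 that did not pass adjustment (adjusted p = 1.0).

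The numbers that the labels give the libraries are nearly bound to treatment in WT. The lower WT numbers hold 5 DCZ libraries and 1 saline library, and the upper ones 1 DCZ library and 5 saline libraries, while in Th-Cre each treatment has 3 in each set. With a term for these sets in each genotype, no gene passed adjustment, and 380 had an unadjusted p under 0.05. Arl4d then had 1.29 ± 0.234 (adjusted p = 0.196). Within the lower WT numbers Arl4d was 1.69 to 2.52 CPM in the 5 DCZ libraries and 3.30 in the 1 saline library, and within the upper numbers it was 2.62 in the 1 DCZ library and 3.16 to 5.88 in the 5 saline libraries. What the numbers stand for is not given in the sources used here, and for WT they can hardly be told apart from treatment.

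With the same term the early-gene median was 0.58, with 48 of 52 genes positive and 17 with an unadjusted p under 0.05. The interferon median was 0.48, the glucocorticoid median 0.18 with 11 of 18 positive, and the thermogenic median −0.10 with 7 of 24 positive. Trim67 had −1.15 with the term.

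Skeletal muscle transcripts were high in 6 libraries, with a mean log2 CPM of 13 markers above 1: Th-Cre DCZ mice DN2075 and DN2091, Th-Cre saline mice DN2087, DN2094 and DN2086, and WT saline mouse WT12. No WT DCZ library was among them. Without these 6 libraries Arl4d had 1.72 ± 0.264 (adjusted p = 0.0217) and Trim67 −0.996, and 4 genes passed adjustment: Arl4d, Jun, Dusp1 and the unnamed model 4931406P16Rik. Of other cell types, endothelial markers were positive in 11 of 11 (median 0.23, but −0.03 with the library-number term) and erythroid markers in 5 of 5 (median 1.196, but 0.0182 without WT9, 0.68 without DN2075 and −0.09 with the library-number term), summing to 78.1 to 834 CPM in Th-Cre DCZ, 94.4 to 441 in Th-Cre saline, 54.9 to 615 in WT DCZ and 51.1 to 1141 in WT saline. None of these markers had an unadjusted p under 0.05, and their part in the results was not tested. The muscle list was positive in 10 of 13 (median 1.59, of which −1.05 in Th-Cre and −2.91 in WT), but its median turned negative with DESeq2 (−0.11) and limma-voom (−0.46). Among the rest, smooth muscle markers were positive in 7 of 9 (0.15), fibroblast in 6 of 9 (0.01), macrophage in 7 of 10 (0.07), lymphocyte in 5 of 8 (0.22), Schwann cell in 5 of 7 (0.28), white adipocyte in 3 of 5 (0.22), mast cell in 0 of 4 (−0.74) and neutrophil in 0 of 2 (−0.25), and none of 8 epithelial markers had enough reads to be tested. Sympathetic neuron markers summed to 2.91 to 4.17 CPM in Th-Cre DCZ, 2.56 to 3.64 in Th-Cre saline, 2.37 to 5.32 in WT DCZ and 2.93 to 5.66 in WT saline, nearly all from Stmn2.

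**Figure D5:**
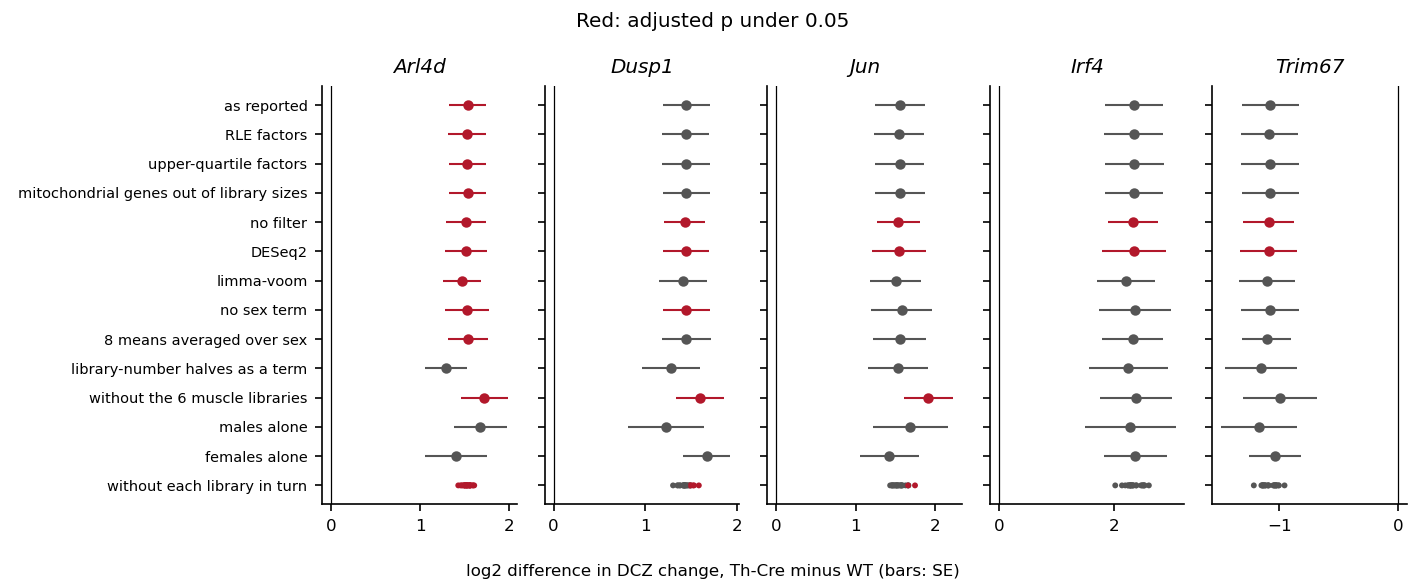
Interaction values (log2, bars are SE) of Arl4d, Dusp1, Jun, Irf4 and Trim67 under each way of processing, red where the adjusted p is under 0.05, with a horizontal axis of its own for each gene. All values keep their sign, and Arl4d is past the threshold except with the library-number term and within 1 sex; in the bottom line each dot leaves out 1 library.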

How the data were processed

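Polyadenylated RNA of 24 libraries was analysed. The submitters' processing notes name kallisto 0.44.0 and the build GRCm38.p6. The authors deposited estimated counts per gene symbol as whole numbers, tested as deposited. Of 36144 genes, 13364 had no read, and filterByExpr left 13129, which held 99.92% of reads.

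The model was edgeR 4.0.16 (R 4.3.3), quasi-likelihood, TMM sizes, a mean per group and sex, with Benjamini-Hochberg adjustment. The SE is the log2 value divided by the square root of F. The biological coefficient of variation was 15.65%. Alternatives used limma 3.58.1 and DESeq2 1.42.0. The steps were tested on simulated data.

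Named genes were those past adjustment, the 10 positive and 10 negative ones with the smallest p at a mean log2 CPM of at least 1, up to 4 members of each of 40 lists, the Arl4 genes and beta receptors, Th, Ucp1, Ppargc1a and Dio2. Fos, Junb, Rgs2 and genes named only as the members of a count fall outside that rule and were picked after their values were seen. Some genes are not reported here. The members and lists were chosen with earlier results of these data known. Positions come from GENCODE M21 (35933 symbols matched), promoters from RefSeq. Libraries are separate mice, and P-values set differences between groups against the spread between mice.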

Additional observations from a re-analysis of the deposited data

Results flagged for a closer look

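Arl4d is listed because the DCZ changes of the genotypes differed by a test of the difference itself, with an interaction value of 1.53. With the library-number term it was 1.29 and no longer past adjustment (edgeR, adjusted p = 0.196).

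Among the 20 genes named for the smallest p, 4 of 80 groups of 6 had a library far from the rest, with a gap of more than 0.625 of the range, and chance gives about 1 in 20. Jun was at 118.37 CPM in Th-Cre saline mouse DN2087, against 45.1 to 55.8 in the other 5. That library also had raised muscle markers and the highest AP-1 mean of its group. Tmem140 was at 92.17 CPM in Th-Cre DCZ mouse DN2097, against 61.7 to 70.9 in the others of that group. Tmem140 was at 37.69 CPM in WT DCZ mouse WT4, against 43.4 to 47.1. Slc35f6 was at 30.671 CPM in WT saline mouse WT2, against 26.6 to 27.4. That is the 1 WT saline library among the lower library numbers.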

How the results depend on the processing

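The count of 1 gene past adjustment, Arl4d, was also 1 with DESeq2's size factors, upper-quartile scaling, mitochondrial genes left out, limma-voom and the model with 8 means. It was 8 with no filter on low counts, 16 with DESeq2's test and 2 without the sex term. It was 0 with a stricter filter, which removes Arl4d (663 genes at an unadjusted p under 0.05), 0 with the library-number term (380), 0 in males alone (975) and 0 in females alone (436), and 4 without the 6 muscle libraries. Leaving out 1 library gave 1 to 7: 7 when mouse WT2 was dropped, 6 for DN2091, 4 for DN2087, 3 for WT7, 2 for WT3 or DN2205, and 1 otherwise. Arl4d was called in all 24, between 1.43 and 1.61. Without WT2, 1754 genes had an unadjusted p under 0.05, against 980 with all libraries. Signs reversed for Adrb1 in females alone (0.11), Arl4a in males alone (−0.23) and Dio2 in females alone (0.21). Dio2 ran from −0.29 to 0.0068 when 1 library was left out, the last without DN2086. The cause was not tested. Of the medians of lists, 29 moved by at least the SD of the list's mean log2 CPM between mice within groups, and 1410 did not. That rule ignores sign and is loose for lists with a wide spread, so the 1410 were not all stable. The heat shock median, for example, was −0.07 as reported and 0.11 in males alone. The muscle median was 1.59, but −0.11 with DESeq2, −0.46 with limma-voom and −1.49 without WT12. No paired analysis was possible because the groups share no mouse numbers. At 30 to 83 reads per library the Arl4d value carries counting error, and genes removed as too low were not analysed here.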
